A study of Homo sapiens with 11 samples.

Results

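The study followed the phosphorylation of AKT, GSK3B and BAD in cultured A549 lung cancer cells given IGF-1, A2M* or both, and reports that A2M* lessened the effect of IGF-1. In A549 tumours it followed that of AKT and GSK3B, and it gives no such measurement for PC-3 tumours. The genes described are 9 of this PI3K and AKT pathway: PIK3CA, PIK3CB, PIK3R1, AKT1, AKT2, MTOR, GSK3A, GSK3B and BAD. They were taken by symbol from a table of 25590 genes, and all 9 were found and tested. Their RNA was measured in 11 tumours of PC-3, a human prostate carcinoma cell line, grown under the skin of male athymic nude mice (Crl:NU-Foxn1nu, 8 weeks old). From day 7, the hosts of 6 tumours received repeated intraperitoneal A2M*, the transformed receptor-binding form of alpha-2-macroglobulin, at 5.6 mg per 20 g body weight, and the hosts of 5 tumours received PBS. The experiment ended at day 31 by one of the study's accounts, and another can be read as treatment that lasted 31 days. All cells came from 1 line and all hosts were athymic, so the tumours were replicates of a single cell line and not of patients. Each tumour gave 1 library, and the labels do not say that each came from a separate mouse, so p-values measure the spread between these samples only. Single tumours are named as in their labels, and the 5 values of the PBS group always follow the order of PC3_tumor_123, PC3_tumor_124, PC3_tumor_125, PC3_tumor_126 and PC3_tumor_127.

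Phosphoinositide 3-kinase (PI3K) is a pair of proteins, a catalytic subunit such as those made by PIK3CA and PIK3CB and a regulatory subunit such as that made by PIK3R1. Once recruited to activated growth factor receptors it makes a membrane lipid that brings the kinases AKT1 and AKT2 to the membrane, where they are phosphorylated and become active. AKT then phosphorylates GSK3A and GSK3B, which silences these kinases, and BAD, which keeps this pro-apoptotic protein in the cytosol bound to adaptor proteins. MTOR is the kinase of both mTOR complexes, one of which phosphorylates AKT while the other promotes translation. This signal travels through phosphate groups on proteins, so a change in pathway activity need not alter the RNA counted here, and the counts cannot show phosphorylation.

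The sites that carry the signal are given as stretches of 30 coding bases from the GENCODE transcripts on GRCh37, with the serine codon in capitals. They are printed because they separate the question asked with phospho-specific antibodies from the one that RNA can answer. The GSK3A stretch lies in exon 1 at chr19:42746546-42746575, the GSK3B stretch in exon 1 at chr3:119812246-119812275 and the BAD stretches in exon 3 at chr11:64039229-64039258 and chr11:64039157-64039186. The AKT1 stretch lies in exon 15 at chr14:105236693-105236722 and the AKT2 stretch in exon 14 at chr19:40739794-40739823. All 6 are coding sequence on the minus strand, written 5′ to 3′ in the direction of the gene.
GSK3A codon 21: ggcagggcgcggactagcTCGttcgcggag
GSK3B codon 9: gggcggcccagaaccaccTCCtttgcggag
BAD codon 75: atccggagtcgccacagcTCCtaccccgcg
BAD codon 99: tttcggggccgctcgcgcTCGgcgcccccc
AKT1 codon 473: ccccacttcccccagttcTCCtactcggcc
AKT2 codon 474: acccacttcccccagttcTCCtactcggcc

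The first 4 stretches encode the sequence that AKT prefers, an arginine 5 and 3 residues before the serine, and the last 2 encode the carboxy-terminal serine at which AKT itself is phosphorylated. AKT1 and AKT2 shared 29 of 30 bases there, whereas GSK3A and GSK3B shared 20 of 30. Codons are numbered on the human coding sequence, and the numbers customary for the BAD antibodies refer to the longer mouse protein. A search for arginine at these positions before a serine or threonine found 2 matches in BAD (168 codons), 1 in GSK3A (483 codons) and 1 in GSK3B (420 codons). It found 2 in AKT1, 2 in AKT2, 3 in MTOR and 0 in PIK3CA, PIK3CB and PIK3R1. Of 19229 coding sequences searched, 23.5% held at least 1 match, and a match is a description of the letters and not a proven site.

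Between 16958533 (PC3_tumor_129, A2M*) and 35874381 (PC3_tumor_127, PBS) reads were counted on genes per tumour. The reads had been sorted by species before counting, and the reads assigned to the mouse host were not analysed here. The keratin and vimentin genes taken as markers of PC-3 cells summed to 2032 to 2544 CPM in the PBS tumours and 1841 to 2364 in the A2M* tumours (CPM, counts per 1000000 counts after TMM normalization). KLK3, which encodes prostate-specific antigen, was at 0 in all 11 libraries, and KLK2 had at most 1 count, whereas TMPRSS2, another gene of luminal prostate cells, lay between 32.8 and 81.3 CPM. A list of 14 stroma and blood cell markers, of which 10 passed the filter, summed to 371 to 749 CPM in the PBS tumours and 366 to 976 in the A2M* tumours. COL1A1 alone gave 293 to 884 CPM of that sum, HBB had at most 18 counts and DCN at most 3. The part of other cells in the values below was not tested, and in bulk tumours fewer cells of a type cannot be told apart from less RNA per cell.

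The RNA of the 9 genes differed little between the groups. None of the 9 passed an adjusted p of 0.01 (edgeR's quasi-likelihood test, Benjamini-Hochberg over the 16630 genes tested), which was also the outcome for all genes, of which 0% passed. No member had an unadjusted p under 0.05 either, against 7.08% of all genes (3.55% higher and 3.53% lower in the A2M* tumours), and in no member were the groups separate, against 0.71% of all genes. The log2 fold changes of A2M* over PBS lay between -0.12 (BAD) and 0.14 (PIK3R1), 6 above 0 and 3 below (49.4% of all genes were above 0), with a median of 0.05. All 9 were within 0.2 of 0, as were 82% of the genes tested, so the members' share is near the background. The 95% intervals of the 9 folds together ran from 0.718 to 1.42, so that no member had an interval reaching a fall below the first or a rise above the second.

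**Figure D1:**
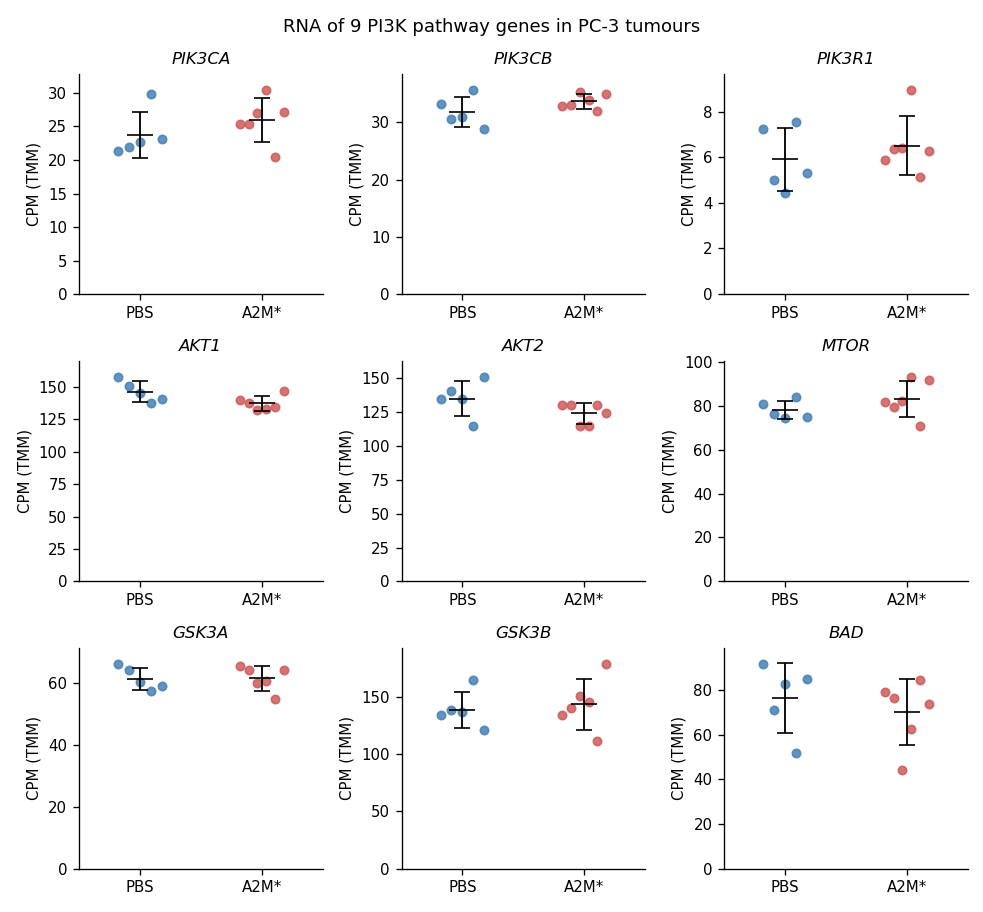
RNA level of each gene in each tumour as CPM after TMM normalization (points; 5 PBS tumours, 6 A2M* tumours), with the group mean and SD (bars). The groups overlap in all 9 panels, and the 2 low BAD values belong to PC3_tumor_126 (PBS) and PC3_tumor_130 (A2M*).

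Of the PI3K subunits, PIK3CA encodes the catalytic subunit p110α and lies on the plus strand of GRCh37 at chr3:178865902-178957881. It was counted at 21.4, 21.9, 22.7, 29.8 and 23.1 CPM in the 5 PBS tumours, and between 20.5 and 30.4 CPM, with a median of 26.2, in the A2M* tumours. PC3_tumor_126 stood above the other PBS tumours and the groups overlapped. A2M* over PBS gave a log2 fold change of 0.13 (SE 0.11, adjusted p = 0.864 by edgeR). Its exons overlap those of KCNMB3 on the other strand, and part of the gene has a close copy elsewhere in the genome, whose effect on the counts was not tested.

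PIK3CB, on the minus strand at chr3:138371540-138553770, encodes the catalytic subunit p110β, which can also be activated through G protein-coupled receptors. It was counted at 33.2, 30.6, 30.9, 35.7 and 28.9 CPM in the 5 PBS tumours, and at 31.9 to 35.4 CPM, with a median of 33.5, in the A2M* tumours. All 6 A2M* values fell inside the range of the PBS tumours. The log2 fold change was 0.08 (SE 0.07, adjusted p = 0.864 by edgeR), and only 8.5% of the genes tested varied less within the groups.

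PIK3R1, on the plus strand at chr5:67511568-67597649, encodes the regulatory subunit p85α, which stabilizes the catalytic subunit and holds it inactive until a receptor is engaged. It was the lowest of the 9, with 108 to 248 counts per tumour. Its level was 7.23, 4.99, 4.44, 7.52 and 5.32 CPM in the 5 PBS tumours, and 5.12 to 8.95 CPM, with a median of 6.31, in the A2M* tumours. The highest value was that of PC3_tumor_131, and the other A2M* values lay within the PBS range. The log2 fold change of 0.14 had the widest interval of the 9, from -0.21 to 0.50 (SE 0.17, adjusted p = 0.909 by edgeR).

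AKT1, on the minus strand at chr14:105235686-105262088, encodes the AKT kinase found in most tissues, with roles in growth and survival. It was counted at 158, 150, 145, 138 and 141 CPM in the 5 PBS tumours, and at 131.9 to 147.1 CPM, with a median of 136.1, in the A2M* tumours. The groups overlapped, and 3 of the A2M* tumours were below every PBS tumour. AKT1 was among the steadiest genes, with an SD within the groups of 0.07 on the log2 CPM scale, below that of all but 2.42% of the genes tested. Its log2 fold change was -0.09 (SE 0.06, adjusted p = 0.792 by edgeR). The exons of AKT1 overlap those of a long non-coding RNA gene on the other strand.

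AKT2, on the minus strand at chr19:40736224-40791443, encodes the AKT kinase best known for insulin-stimulated glucose uptake. It was counted at 135, 141, 134, 115 and 151 CPM in the 5 PBS tumours, and at 114.6 to 130.7 CPM, with a median of 127.4, in the A2M* tumours. The lowest values, all about 115 CPM, came from PC3_tumor_126 of the PBS group and PC3_tumor_130 and PC3_tumor_131 of the A2M* group, so low tumours were found in both groups. The log2 fold change was -0.12 (SE 0.07, adjusted p = 0.783 by edgeR), and this was the smallest adjusted p of the 9.

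MTOR, on the minus strand at chr1:11166592-11322613, overlaps ANGPTL7 and MTOR-AS1 on the other strand. It was counted at 80.7, 76.3, 74.4, 83.8 and 75.0 CPM in the 5 PBS tumours, and at 70.7 to 93.0 CPM, with a median of 82.1, in the A2M* tumours. PC3_tumor_131 and PC3_tumor_112 lay above every PBS tumour and PC3_tumor_132 below all of them. For MTOR the log2 fold change was 0.09 (SE 0.07, adjusted p = 0.858 by edgeR).

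The 2 GSK3 kinases phosphorylate glycogen synthase and beta-catenin, among many other proteins, and are active unless AKT or another kinase phosphorylates them. GSK3A, on the minus strand at chr19:42730377-42746777, was counted at 65.9, 64.0, 60.1, 57.2 and 58.9 CPM in the 5 PBS tumours, and at 54.7 to 65.3 CPM, with a median of 62.2, in the A2M* tumours. Its log2 fold change was 0.00 (0.0043 before rounding, SE 0.06, adjusted p = 0.994 by edgeR), the one nearest to 0 of the 9. Its exons overlap those of ZNF526 on the other strand and other gene models on its own, and the strand setting of the counting is not given in the sources used here.

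GSK3B, on the minus strand at chr3:119540168-119813841, was counted at 135, 138, 136, 164 and 121 CPM in the 5 PBS tumours, and at 111 to 178 CPM, with a median of 143, in the A2M* tumours. The highest and the lowest of the 11 values, in PC3_tumor_112 and PC3_tumor_132, both belonged to the A2M* group. The log2 fold change was 0.05 (SE 0.11, 95% interval from -0.18 to 0.28, adjusted p = 0.959 by edgeR). The exons of GSK3B overlap those of GSK3B-DT, a long non-coding RNA gene, on the other strand.

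BAD, on the minus strand at chr11:64037302-64052176, encodes a BH3-only protein that binds and blocks anti-apoptotic BCL2 proteins when it is not phosphorylated, and it overlaps GPR137 on the other strand. It was counted at 91.5, 70.9, 82.6, 51.7 and 84.9 CPM in the 5 PBS tumours, and at 44.01 to 84.58 CPM, with a median of 75.1, in the A2M* tumours. PC3_tumor_126 and PC3_tumor_130 were the lowest of their groups. BAD was the most variable of the 9, with an SD within the groups of 0.34 on the log2 CPM scale, above that of 82.4% of the genes tested. For BAD the log2 fold change was -0.12 (SE 0.16, adjusted p = 0.920 by edgeR). It was -0.24 without PC3_tumor_126 (adjusted p = 0.600) and -0.02 without PC3_tumor_130 (adjusted p = 0.996), so that its size depended on these 2 libraries while no fit passed the threshold.

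**Figure D2:**
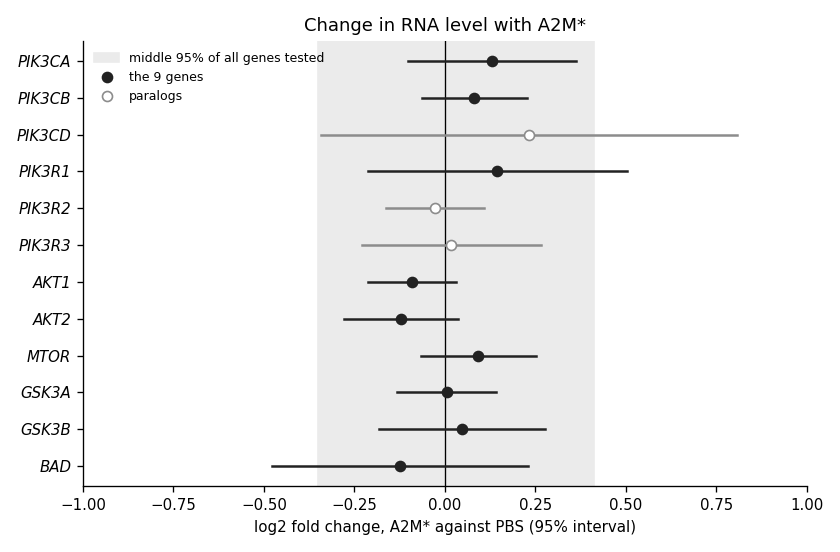
Log2 fold change of A2M* over PBS with its 95% interval for the 9 genes (filled) and for PIK3CD, PIK3R2 and PIK3R3 (open), from edgeR. Every interval includes 0, and the grey band holds the middle 95% of all genes tested, from -0.35 to 0.41.

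Levels were compared between genes only per length, with the deposited RPKM (reads per kilobase of exon and 1000000 reads). BAD was the highest at 59.5 ± 11.8 (SD, n = 11), followed by AKT1 at 43.5 ± 2.07, GSK3A at 28.1 ± 1.64, AKT2 at 24.3 ± 1.82 and GSK3B at 19.8 ± 2.68. MTOR was at 9.27 ± 0.912, PIK3CA at 6.74 ± 0.994, PIK3CB at 5.26 ± 0.430 and PIK3R1 at 0.815 ± 0.184. The AKT and GSK3 kinases and BAD were therefore above MTOR and all 3 PI3K genes in RPKM. Neighbours in this order had ranges that did not overlap for AKT1 above GSK3A, GSK3B above MTOR and PIK3CB above PIK3R1. MTOR was above PIK3CA and PIK3CA above PIK3CB in 11 of 11 tumours although their ranges overlapped. BAD exceeded AKT1 in 9 of 11 tumours, GSK3A exceeded AKT2 in 10 of 11, and AKT2 exceeded GSK3B in 9 of 11, so these neighbours did not keep their order in every tumour.

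Cells can draw on several paralogs for each step, and the share of each was followed in every tumour. Of the summed RPKM of AKT1 and AKT2, AKT1 gave 63.9 ± 2.28% in the PBS tumours (n = 5) and 64.4 ± 1.32% in the A2M* tumours (n = 6). GSK3B gave 40.9 ± 3.44% of the GSK3 sum in the PBS tumours and 41.5 ± 3.04% in the A2M* tumours, so GSK3A was the more abundant GSK3 RNA per length in both groups. PIK3CA gave 34.5 ± 4.49% and 34.2 ± 3.81% of the class IA catalytic sum, close to the 38.1% and 39.2% of PIK3CD, which encodes the p110δ subunit typical of leukocytes. The largest imbalance was in the regulatory subunits. PIK3R1 gave only 1.46 ± 0.322% and 1.63 ± 0.344% of their sum, against 66.5% and 65.7% for PIK3R2 and 32.0% and 32.7% for PIK3R3.

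No share differed between the groups beyond the spread between tumours. The differences of A2M* from PBS were 0.452 percentage points for AKT1 (p = 0.704), 0.577 for GSK3B (p = 0.760), -0.335 for PIK3CA (p = 0.903) and 0.168 for PIK3R1 (p = 0.446) by two-sided exact permutation tests. The regulatory sum was 2.84 ± 0.385 times the catalytic sum in the PBS tumours and 2.61 ± 0.623 times in the A2M* tumours (exact permutation test, p = 0.468). The adjusted p over these 5 comparisons was 0.903 for each, and the smallest p that the 462 labelings allow is 0.00216. RPKM divides by a length fixed by the annotation, so a gene whose tumour transcript is shorter than its annotated exons, such as one with a shorter isoform, is understated.

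**Figure D3:**
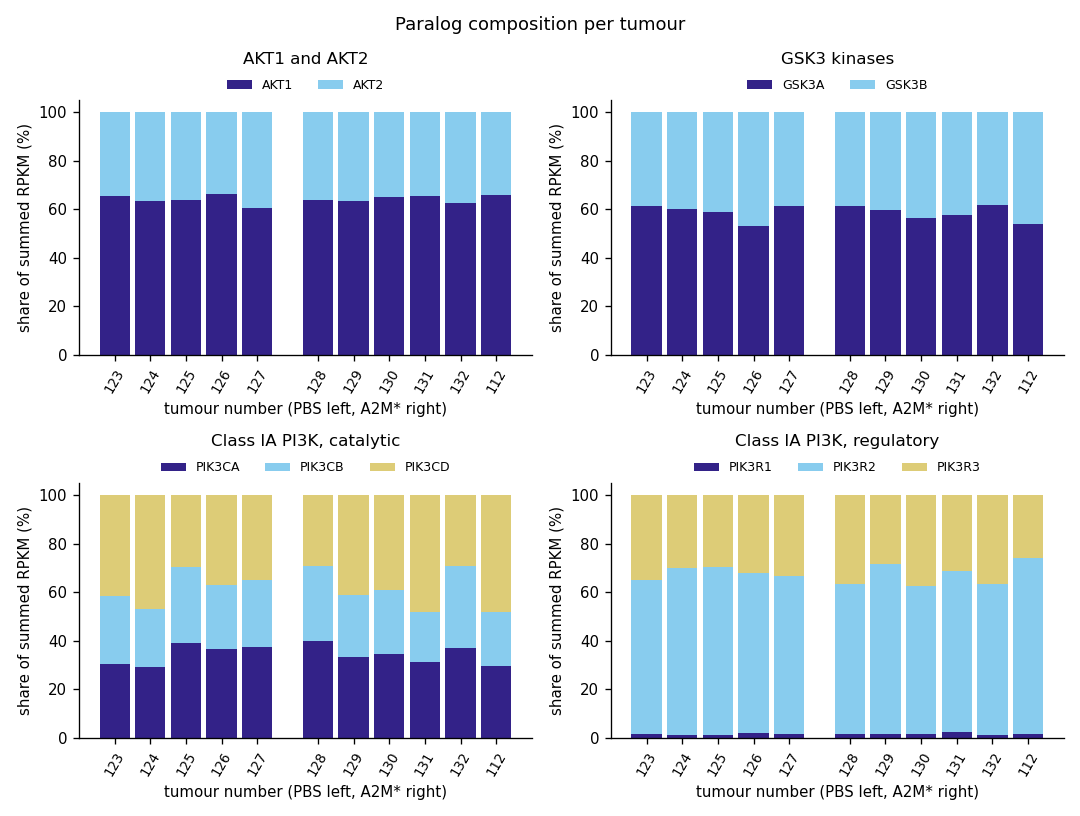
Share of each paralog in the summed deposited RPKM of the genes shown in its panel, in percent, with 1 bar per tumour marked by its label's number (PBS left, A2M* right). PIK3R1 is a thin band at 1.16 to 2.26% in all 11 tumours, and GSK3B has its largest share, 46.8%, in PC3_tumor_126 (PBS).

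The 9 genes also varied between tumours of the same group, and in some of them this variation went with a property of the libraries. For each tumour, the slope of log2 CPM, relative to each gene's mean, on the GC content of its longest transcript was taken over the 15821 genes with a GC value (95.1% of those tested). This relation was examined after the values had been seen. The GC slope was lowest in PC3_tumor_126 of the PBS group (-0.19 log2 units per 10% GC), then PC3_tumor_130 (-0.16) and PC3_tumor_131 (-0.09) of the A2M* group, and highest in PC3_tumor_127 of the PBS group (0.12). Its group means were 0.01 for PBS and -0.01 for A2M*, a difference of -0.03 that was within the spread between tumours (exact permutation test, p = 0.725). The libraries low in GC-rich RNA were thus in both groups.

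Across tumours, centred on the group means, the GC slope went with AKT2 at r = 0.961 (rho = 0.955) and with BAD at r = 0.908 (rho = 0.855), both GC-rich with 58.0% and 66.3%. It ran against PIK3CB at r = -0.839 (rho = -0.782), PIK3CA at r = -0.814 (rho = -0.682) and GSK3B at r = -0.718 (rho = -0.900), which have 40.7%, 35.7% and 42.2% GC. These 5 of 9 relations passed an adjusted p of 0.05 in both measures (exact permutation within groups; for r the adjusted p was 0.000312, 0.00486, 0.00486, 0.0159 and 0.0346, and for rho 0.00229, 0.0113, 0.0120, 0.0453 and 0.00875, each in the order AKT2, BAD, PIK3CB, PIK3CA, GSK3B). AKT1 (r = 0.423), GSK3A (r = 0.235), PIK3R1 (r = -0.585) and MTOR (r = -0.610) did not pass. The slope was fitted on genes that included these 9. By construction, GC-rich genes therefore tend to go with it and GC-poor genes against it, and the p-values do not allow for this. The median size of r was 0.718 over the members and 0.486 over all genes. How many of all genes would pass the same test was not counted, so the 5 relations are not shown to be particular to the members. Without the 2 tumours farthest in GC slope, PC3_tumor_126 and PC3_tumor_130, r was 0.915 for AKT2, 0.711 for BAD, -0.608 for PIK3CB, -0.762 for PIK3CA and -0.690 for GSK3B, each with its sign kept. At 9 tumours only AKT2 still passed, so for the other 4 the call depended on those tumours while r stayed between 0.608 and 0.762 in size. Of the members that had not passed, MTOR was then at r = -0.813 and PIK3R1 at -0.553. AKT1 (r = -0.163) and GSK3A (r = -0.248) changed sign.

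With a straight line on GC removed from each tumour, the SD within groups on the log2 CPM scale went from 0.34 to 0.18 for BAD, from 0.12 to 0.04 for AKT2 and from 0.19 to 0.11 for PIK3CA. It went from 0.07 to 0.14 for AKT1 and from 0.12 to 0.15 for MTOR, so the line did not narrow every gene. The log2 fold changes became -0.09 for AKT2, -0.08 for BAD, -0.05 for AKT1, 0.10 for PIK3CA and 0.13 for PIK3R1, with adjusted p from 0.567 for AKT2 upwards (limma), and no member passed. The 3 members with a fold change below 0, AKT1, AKT2 and BAD, were also the 3 with the highest GC content of the 9, and their signs were kept after the line was removed.

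**Figure D4:**
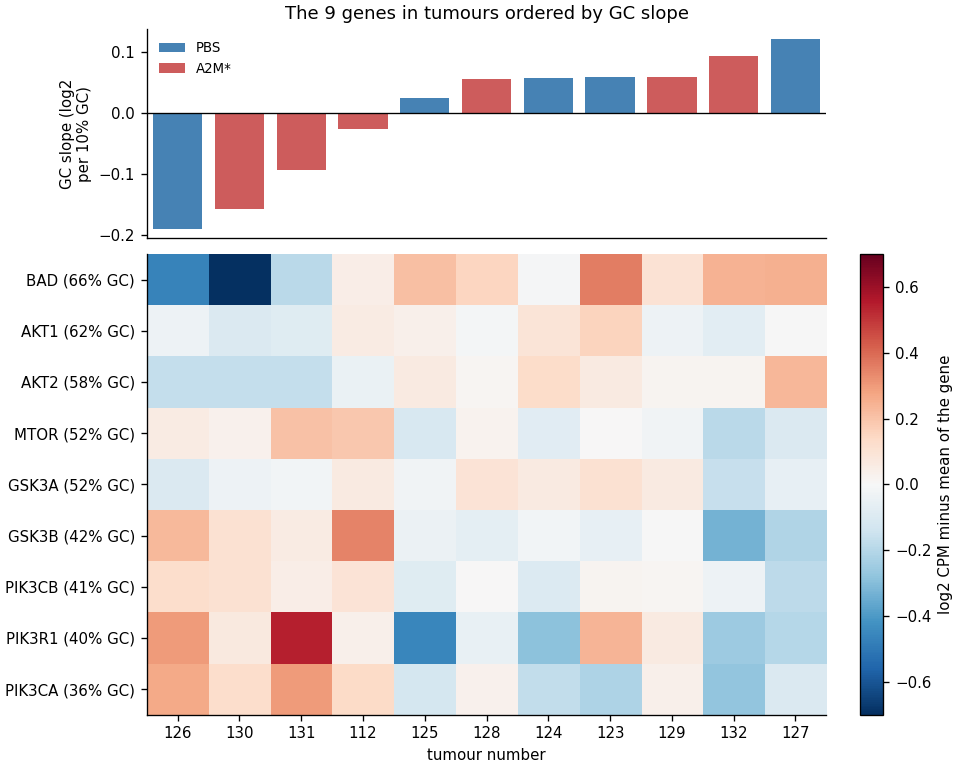
Upper bars give the GC slope of each tumour (log2 CPM per 10% GC; blue PBS, red A2M*), in rising order. The map below gives log2 CPM of each gene minus its mean over the 11 tumours, genes ordered from high to low GC content. BAD and AKT2 are low and PIK3CA is high in the 3 tumours with the lowest slope, PC3_tumor_126, PC3_tumor_130 and PC3_tumor_131.

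Pairs of members were then followed across tumours within the groups. Of 36 pairs, 8 passed an adjusted p of 0.05 (Pearson's r, exact permutation within groups), 7 positive and 1 negative. How many pairs of other genes would pass was not counted, so the 8 are not shown to be particular to the members. The largest in size was AKT2 with PIK3CB (r = -0.879), and MTOR went with GSK3B (r = 0.818), PIK3CA (r = 0.804), PIK3R1 (r = 0.764) and PIK3CB (r = 0.640). The others were AKT2 with BAD (r = 0.793), AKT1 with GSK3A (r = 0.783) and GSK3B with PIK3CB (r = 0.767), and all 8 had an adjusted p of 0.0373. With Spearman's rho 6 pairs passed, 3 positive and 3 negative, each with a permutation adjusted p of 0.0457. AKT2 with PIK3CB (rho = -0.809), AKT1 with GSK3A (rho = 0.845) and PIK3R1 with MTOR (rho = 0.791) were among the 8 above. GSK3B with BAD (rho = -0.864), GSK3B with PIK3CA (rho = 0.7455) and BAD with PIK3CA (rho = -0.736) were not.

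The calls changed when tumours were left out. The 2 tumours farthest from the median in 1 gene of each pair were left out, which leaves 9. Tumours far out only in the other gene stayed in. None of the 36 then passed, but all 8 kept their sign. The r was then 0.890 for GSK3B with PIK3CB, 0.746 for AKT1 with GSK3A, 0.726 for AKT2 with BAD, 0.682 for PIK3CB with MTOR and -0.657 for AKT2 with PIK3CB. For MTOR it was 0.594 with PIK3R1, 0.566 with PIK3CA and 0.556 with GSK3B. Scaled by library size alone, 12 pairs passed, 9 positive and 3 negative. With 1 tumour left out, 9 passed without PC3_tumor_123 or PC3_tumor_130, 4 without PC3_tumor_131 or PC3_tumor_112 and 1 without PC3_tumor_132. The count was 0 without any of the others, PC3_tumor_124 to PC3_tumor_129. With the GC line removed 1 pair passed, AKT1 with MTOR (r = 0.859, permutation adjusted p = 0.0371), which had r = 0.181 before. AKT2 with BAD went to r = -0.337 and AKT2 with PIK3CB to r = -0.276. Of the other pairs among the 8, GSK3B with MTOR was at r = 0.756, PIK3R1 with MTOR at 0.621 and PIK3CA with MTOR at 0.538. AKT1 with GSK3A was at 0.532, GSK3B with PIK3CB at 0.315 and PIK3CB with MTOR at 0.0385. Only AKT2 with BAD changed sign, and none of the 8 passed.

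The 3 genes most like each of AKT1, GSK3B and BAD in log2 CPM over the 11 tumours are given as a description, since they were picked from all genes tested. AKT1, with 62.1% GC, was closest to NDUFA10 (r = 0.952), EIF3B (r = 0.918) and OPLAH (r = 0.917). These have 45.95%, 55.99% and 66.57% GC. GSK3B was closest to VRK2 (r = 0.967), CSNK2A1 (r = 0.964) and DLG1 (r = 0.958), all with 40.7 to 44.3% GC. BAD was closest to FBXW5 (r = 0.987), MZT2B (r = 0.978) and CTBP1 (r = 0.977), with 60.4 to 67.0% GC. GSK3B itself has 42.2% GC and BAD 66.3%. The GC contents of the genes closest to AKT1 were spread more widely than those of the genes closest to GSK3B or BAD. How often the genes closest to any gene are near it in GC content was not counted.

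The pathway around the members was read from 9 lists of genes, of which 116 genes passed the filter and 10 did not. Of the 116, 0 were called by edgeR (smallest adjusted p 0.640). At an unadjusted p under 0.05 there were 5, or 4.31%, against 7.08% of all genes, 1 higher and 4 lower in A2M* tumours. Fold changes were above 0 for 44 and below 0 for 72, with a median log2 fold change of -0.03 against -0.0021 for all genes. A single list gene, BTRC, had groups that did not overlap, against 0.71% of all genes, so this count is near the background.

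Among PI3K subunits outside the members, 8 of 11 were tested, 5 above and 3 below 0. PIK3R2, the highest of them in RPKM, had a log2 fold change of -0.03 (SE 0.06), PIK3R3 of 0.02 (SE 0.12), PIK3CD of 0.23 (SE 0.27) and PIK3R4, a subunit of the endosomal PI3K, of 0.15 (SE 0.08). Their adjusted p lay between 0.752 and 0.985 (edgeR). PIK3CG, PIK3R6 and PIK3C2G, with at most 8 counts in any tumour, were below the filter. PIK3CD was the most variable subunit, between 23.6 CPM in PC3_tumor_132 and 68.6 CPM in PC3_tumor_131, both of the A2M* group.

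Of the 15 PI3K inhibitors and phosphatases that act on the lipid or on AKT, 3 were above and 12 below 0, from -0.23 (INPP4B) to 0.09 (INPP4A) in log2. PPP2R1A, the scaffold subunit of a phosphatase that removes phosphate from AKT, had both the highest RPKM and the smallest p of this list, with a log2 fold change of -0.12 (adjusted p = 0.786 by edgeR). Of 8 tested AKT-related kinases and cofactors 6 were above 0. PDPK1, the kinase that phosphorylates AKT in its activation loop, was at 66.6 ± 3.63 CPM in the PBS tumours (n = 5) and 69.4 ± 2.96 in the A2M* tumours (n = 6). TRIB1 and TRIB3, pseudokinases that bind other kinases, had log2 fold changes of 0.14 and -0.11 (adjusted p = 0.795 and 0.864 by edgeR). SGK3, TCL1A and TCL1B were below the filter.

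In the mTOR list 4 of 13 were above 0. RPTOR and RICTOR, which define the 2 mTOR complexes, had log2 fold changes of -0.05 (SE 0.10) and -0.11 (SE 0.15). TSC1, TSC2 and RHEB, the switch through which AKT acts on mTOR, were at -0.03, -0.02 and -0.03. DDIT4, an mTOR inhibitor induced by stress, lay outside this narrow range with a log2 fold change of -0.31 but varied widely between tumours, at 277 ± 65.5 CPM in the PBS tumours (n = 5) and 224 ± 64.3 in the A2M* tumours (n = 6; SE of the log2 fold change 0.19, adjusted p = 0.799 by edgeR). PRR5L, a partner of RICTOR, had the smallest p of the list, with a log2 fold change of 0.20 (adjusted p = 0.710 by edgeR).

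Of the 11 substrates of mTOR and translation genes 8 were below 0. EIF4EBP1, the repressor of cap-dependent translation that mTOR inactivates, was at 60.5 ± 6.51 CPM in the PBS tumours (n = 5) and 50.1 ± 5.75 in the A2M* tumours (n = 6). Its log2 fold change of -0.27 (SE 0.09) had the smallest p of all 116 list genes but an adjusted p of 0.640 (edgeR), and the groups overlapped. RPS6, a ribosomal protein and the most abundant of this list in RPKM, had a log2 fold change of -0.18 (adjusted p = 0.735 by edgeR).

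Among 14 tested receptors, ligands and adaptors 10 were below 0. INSR, the insulin receptor, had a log2 fold change of -0.06 (SE 0.06) and IRS2, an adaptor that links it to PI3K, of -0.24 (SE 0.19). SHC1, the highest in RPKM, was at 0.16 and GAB2, with the smallest p, at -0.18 (adjusted p = 0.724 by edgeR). The widest values were those of IGF2 at 0.62 and IGFBP3 at -0.48, with adjusted p of 0.784 and 0.770, and IGF2 was below 1.6 CPM in every tumour. IRS4 was below the filter.

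Of 10 tested partners and substrates of GSK3, 2 had an unadjusted p under 0.05, against 7.08% of all genes. The list around BAD also held 2, of 19 tested. Whether any list differs from the background was not tested. BTRC, the ubiquitin ligase subunit that recognizes beta-catenin after GSK3 has phosphorylated it, was at 34.6 to 39.1 CPM in the PBS tumours and 39.3 to 46.9 CPM in those given A2M*, which is a log2 fold change of 0.18 (SE 0.06, adjusted p = 0.640 by edgeR). GYS1, muscle glycogen synthase, was at 69.1 to 76.3 CPM in the PBS tumours and 48.3 to 71.3 CPM in those given A2M*, which is a log2 fold change of -0.24 (SE 0.09, adjusted p = 0.642 by edgeR). CTNNB1, which encodes beta-catenin itself, was at 436 ± 23.0 CPM (n = 5) and 429 ± 38.9 CPM (n = 6). GYS2 was below the filter.

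Of the 19 genes listed around BAD (BCL2 family members, kinases and adaptor proteins) 8 were above and 11 below 0. At an unadjusted p under 0.05 there were 2, BCL2L1 and RPS6KA1, against 7.08% of all genes. BCL2L1, whose product is the anti-apoptotic BCL-X that BAD binds, was at 364 to 429 CPM in the PBS tumours and 258 to 424 CPM in those given A2M*, which is a log2 fold change of -0.27 (SE 0.11, adjusted p = 0.659 by edgeR). RPS6KA1, a kinase that phosphorylates BAD downstream of MAP kinases, had a log2 fold change of -0.21 (SE 0.08, adjusted p = 0.648 by edgeR). YWHAZ, an adaptor that holds phosphorylated BAD in the cytosol, was the highest of the list in RPKM and had a log2 fold change of 0.03 (SE 0.09).

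FOXO transcription factors are kept out of the nucleus by AKT, so their targets are a route by which AKT activity can reach RNA. Of 20 factors and targets 18 were tested, 7 above and 11 below 0, and 0 of 18 had an unadjusted p under 0.05, against 7.08% of all genes. FOXO1, FOXO3 and FOXO4 had log2 fold changes of -0.01, -0.06 and 0.04, with adjusted p between 0.914 and 0.993 (edgeR). TXNIP, the highest in RPKM, was at 502 ± 102 CPM in the PBS tumours (n = 5) and 503 ± 144 in the A2M* tumours (n = 6). GADD45A had the smallest p, with a log2 fold change of 0.21 (SE 0.15, adjusted p = 0.828 by edgeR), and SESN3 and PDK4 had the widest values at 0.42 and -0.37. TRIM63 and IGFBP1 were below the filter.

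**Figure D5:**
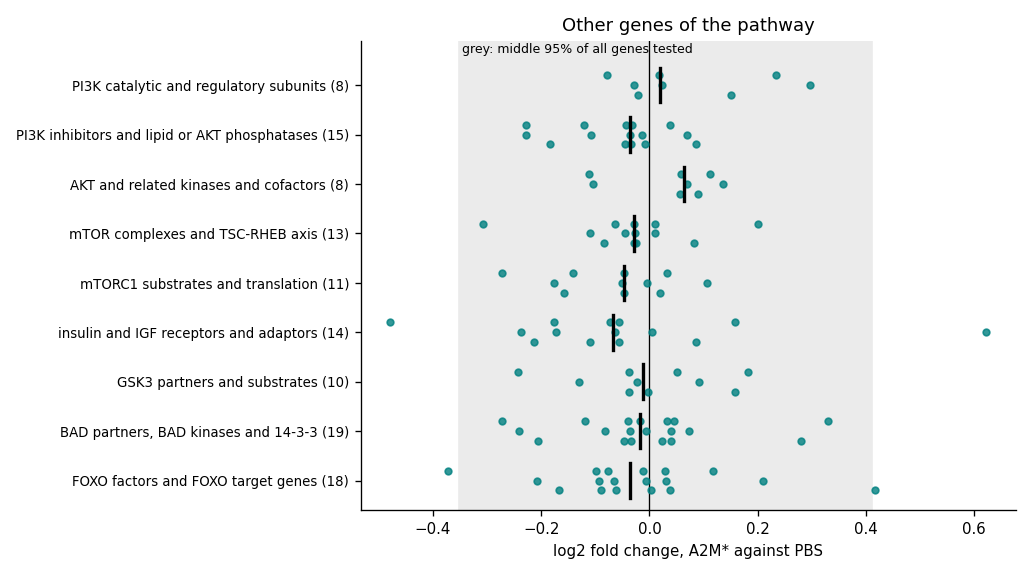
Log2 fold change of A2M* over PBS for the 116 tested genes of 9 pathway lists (points; number tested in parentheses) with each list's median (black bar). All 9 medians lie between -0.07 and 0.06, and the grey band holds the middle 95% of all genes tested.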

How the data were processed

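RNA of 11 PC-3 tumours was sequenced from Illumina TruSeq libraries (bcl2fastq 1.8.4, per the submitters' processing notes). The authors assigned reads to human or mouse by xenome, aligned them with TopHat2 to hg19 and counted human-specific reads on RefSeq genes with featureCounts; their other versions and the strand setting are not given in the sources used here. The deposited counts are raw whole numbers, the deposited RPM are counts per 1000000 counts of the tumour and the deposited RPKM divide RPM by exon length (checked, the largest difference of RPM from the counts was 4.99e-07).

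The 9 genes and the pathway lists were chosen with earlier results of these data known. Tumours were grouped by labelled treatment. In edgeR 4.0.16 (R 4.3.3) low counts were removed by filterByExpr, TMM factors (0.958 to 1.03) were computed and the 16630 genes kept entered a quasi-likelihood fit. Calls needed an adjusted p (Benjamini-Hochberg) under 0.01. For log2 CPM a prior count of 2 was used. Shares and correlations were tested by exact permutation (correlations within groups, 86400 orders). The steps were tested on simulated data. Genes named are the members, their paralogs, genes fixed for their role, and in each list the smallest p, the highest RPKM and all below the filter; the widest fold changes (IGF2, IGFBP3, INPP4A, INPP4B, SESN3, PDK4), GYS1, BCL2L1 and the markers were named after their values were seen. Alternatives were RLE and library size scaling, other filters, DESeq2 1.42.0, limma-voom (limma 3.58.1), other call rules, counts in place of RPKM and each tumour left out; removal of a GC trend was added after seeing the data. Sequences and positions are from GENCODE on GRCh37, the build of hg19. Some genes of the lists are not reported here and were left out of the list counts and shares. Figures were drawn with matplotlib 3.10.9.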

Additional observations from a re-analysis of the deposited data

Results flagged for a closer look

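Among 60 groups of values examined, 4 held a tumour whose gap to the nearest other exceeded Dixon's 95% critical value, where chance would give about 1 in 20, or 3.0. PIK3CA was at 29.8 CPM in PC3_tumor_126 (PBS), above the other PBS tumours at 21.4 to 23.1. PIK3R1 was at 8.95 CPM in PC3_tumor_131, above the other A2M* tumours at 5.12 to 6.41. FOXO3 was at 37.3 CPM in PC3_tumor_128, below the others at 41.5 to 43.4, and RHEB was at 86.0 CPM in PC3_tumor_132, below the others at 99.3 to 104.0. PC3_tumor_126 and PC3_tumor_131 were also among the 3 with the lowest GC slope, and the part of that property in these values was not tested.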

How the results depend on the processing

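No member and no pathway gene passed under any alternative run. Over all genes the count stayed at 0 except with DESeq2, which called 1 (REP15, adjusted p = 0.00308), and when both tools had to reach an unadjusted p of 0.01, which gave 241 genes, 122 up and 119 down. Of 162 values for the 9 members 154 kept their sign. GSK3A reversed without the filter (-0.00032). Leaving out 1 tumour gave -0.019 to 0.035 for GSK3A, -0.025 to 0.11 for GSK3B, -0.058 to 0.0010 for PIK3R2, -0.030 to 0.096 for PIK3R3, -0.056 to 0.041 for FOXO1, -0.026 to 0.17 for FOXO4, -0.11 to 0.0020 for RPTOR, -0.18 to 0.055 for RICTOR, -0.074 to 0.039 for TSC1, -0.095 to 0.032 for TSC2, -0.049 to 0.0081 for RHEB, -0.045 to 0.028 for CTNNB1, -0.00068 to 0.085 for YWHAZ and -0.089 to 0.12 for TXNIP. Scaling by library size alone reversed PIK3R2 (0.015), FOXO1 (0.037), TSC1 (0.015), TSC2 (0.020), RHEB (0.016) and CTNNB1 (0.020). Removing the GC trend reversed PIK3R2 (0.013), TSC2 (0.019) and TXNIP (-0.041), and TXNIP also reversed without the filter (-0.0025) and with limma-voom (-0.024). None of these values passed the threshold, and the cause was not tested. The differences in share with 1 tumour left out ran from -0.431 to 1.02 percentage points for AKT1, from -0.324 to 2.04 for GSK3B and from -1.70 to 0.782 for PIK3CA. Co-varying pairs numbered 0 with the 2 farthest tumours out, 1 with the GC trend removed, 12 with library size alone, 6 with Spearman's rho and 0 to 9 with 1 tumour left out. Relations to the GC slope numbered 5, 1 with the 2 farthest out and 3 to 6 with 1 left out (3 without PC3_tumor_126 or PC3_tumor_132). No paired analysis was possible because the groups share no tumour numbers. With 108 to 248 counts, PIK3R1 is the member with the lowest depth.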
